A study of Rattus norvegicus with 34 samples.

Results

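Tsku encodes Tsukushi, a small leucine-rich repeat proteoglycan that hepatocytes secrete. Its 1 probe set, 1383315_at, was followed on all 34 arrays, and Tsku is 1 of 12462 genes that the array annotation names. Livers of male rats of 2 strains were measured on Affymetrix rat arrays, 1 liver per array. Brown Norway rats were given 1 g per kg body weight toluene in corn oil by gavage and killed 4 hours later at 4, 12 or 24 months of age (3 rats per age), and Brown Norway rats of the same ages with no treatment were the controls (3 per age). F344 rats, all untreated, were 6, 11, 18 or 24 months old (4 per age). The controls are labelled as having no treatment, so toluene, corn oil and the gavage itself cannot be told apart, and the labels give no time of day of killing. The arrays of each strain had similar distributions of signals, which differed between the strains, so a signal in one strain was not set against a signal in the other.

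Tsukushi was described first in chick embryos as an extracellular inhibitor of bone morphogenetic proteins, and it also binds ligands or receptors of the Wnt, Notch and transforming growth factor beta pathways. In mice the liver is a main source of the circulating protein, and its liver transcript has been reported to move with thyroid hormone, energy balance, endoplasmic reticulum stress and cholesterol metabolism. Toluene is a solvent that liver cytochrome P450 enzymes oxidise, and such enzymes need haem, which the liver makes through Alas1, the first and rate-limiting enzyme of haem synthesis.

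The start of Tsku lies on the minus strand of rat chromosome 1. In the RefSeq window on build GRCr8, chr1:162082719-162083018, which runs from 250 bases before to 50 bases after the start, the GC box GGGCGG, known as a binding sequence of Sp1-type factors, occurred 3 times on either strand. At least 1 match was present in 33.1% of 33469 rat promoters of the same length, and the share with 3 matches was not counted. The 3 stretches are shown because they are the repeated feature of this promoter, with the motif in capitals, and the last pair overlap.
GC box at -177, chr1:162082928-162082957: tgctcggccagcGGGCGGggacagggctgc
GC box at -59, chr1:162082810-162082839: gagcccggcggcGGGCGGggacgtggggcg
GC box at -46, chr1:162082797-162082826: ggcggggacgtgGGGCGGgacgtgcgggct
The core of the binding sequence of the aryl hydrocarbon receptor, GCGTG, occurred once, at +19. It is shown because the receptor's gene Ahr is described further on, beside the genes of foreign-compound metabolism. It was present in 29.7% of all promoters.
Receptor core at +19, chr1:162082732-162082761: tcgcctaggtgaGCGTGccgaggcgacagc
The E-box CACGTG, which clock factors bind and 6.42% of promoters hold, had 0 matches, as had the TATA box TATAAA, held by 14.2%. These are matches of letters and not measured binding.

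Tsku was chosen by its own signals in these livers, so its values are a description and carry no test. Signals are the deposited linear intensities. Signals under 32 were set to 32, the floor, before logs were taken, because signals that low have no usable order, and a fold against a group at the floor is a lower bound.

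At 4 months Tsku had signals of 348, 263 and 387 in toluene-dosed livers, against 21.7, 27.4 and 26.1 in control livers. All 3 control signals lay under the floor and all 3 dosed signals far above it. The dosed livers averaged 333 ± 63.3 and the control livers 25.1 ± 2.98 (SD, n = 3 each), a difference of at least 10.3-fold (log2 fold change 3.36, SE 0.45). With low signals set to the floor, no other of the 8587 Brown Norway genes with usable signal had a log2 fold change larger in size.

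At 12 months Tsku had signals of 368, 299.6 and 1076 in toluene-dosed livers, against 16.9, 33.4 and 27.1 in control livers. The groups again did not overlap, and 2 of the 3 control signals were under the floor. The dosed livers averaged 581 ± 430 and the control livers 25.8 ± 8.33 (SD, n = 3 each). The difference was at least 15.1-fold (log2 fold change 3.92, SE 0.45), again the largest in size of the 8587 genes with low signals set to the floor, and without the liver at 1076 the log2 fold change was 3.35.

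At 24 months the signals were 96.9, 173 and 75.3 in toluene-dosed livers, against 193, 209 and 68.0 in control livers. The ranges overlapped, with the lowest signal of the 6 in a control liver. The means were 115 ± 51.2 in dosed livers and 156 ± 77.0 in control livers (SD, n = 3 each), and the log2 fold change was -0.37 (SE 0.45), a size exceeded by 17.0% of genes. Because the toluene differences at 4 and 12 months are lower bounds, the difference at 24 months lay below them by these sizes or more: 24 minus 4 months gave -3.73 on the log2 scale (SE 0.64), and 24 minus 12 months gave -4.29 (SE 0.64). These standard errors share 1 spread over the 6 Brown Norway groups. The log2 SD of Tsku was 0 and 0.04 in control livers of 4 and 12 months, as set by the floor. At 24 months it was 0.90 in control and 0.61 in dosed livers, so the standard errors may be too small for that age. The 4- and 12-month differences, both bounds, were not set against each other.

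**Figure D1:**
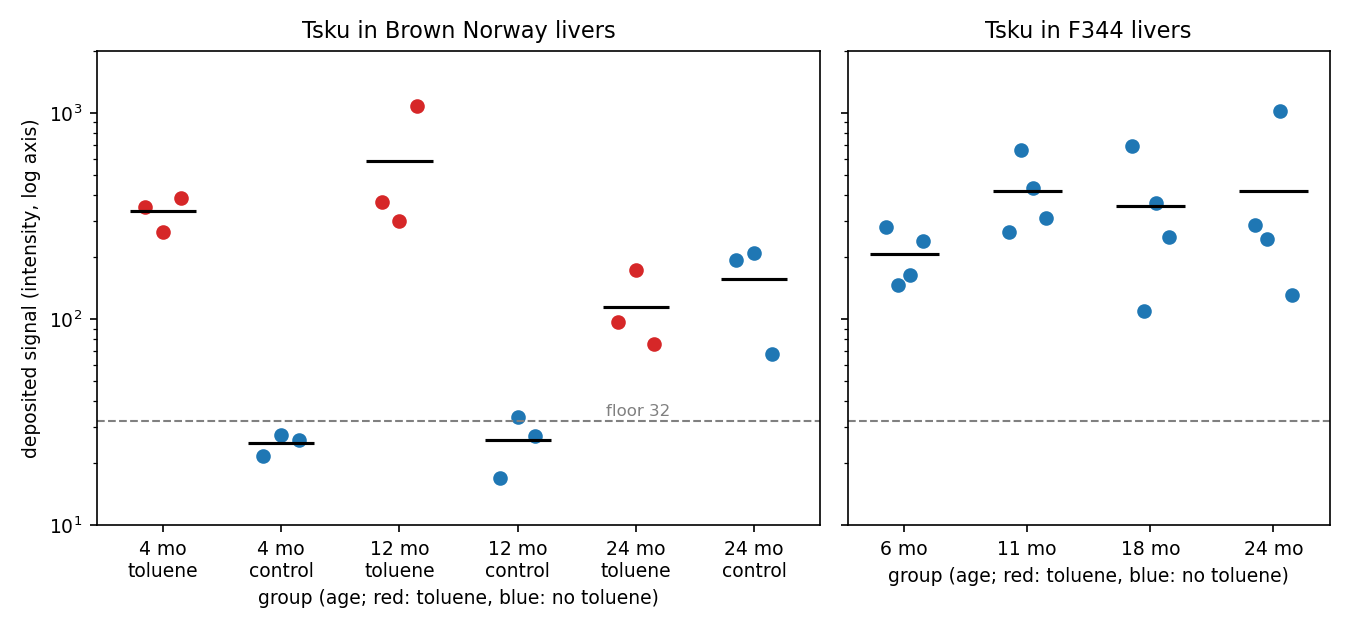
Deposited Tsku signal (intensity, log axis) in each liver, by group. Points are single livers, horizontal bars are group means, and the dashed line is the floor of 32. Control livers of 4 and 12 months lie at or near the floor and the 6 dosed livers of those ages between 263 and 1076, while dosed and control livers of 24 months overlap.

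Both parts of that change with age could be read from the separate groups. Among control livers Tsku was higher at 24 months, with no overlap: the lowest control liver at 24 months had 68.0 and the highest at 4 or 12 months had 33.4. The 24-month controls exceeded the 4-month controls at least 4.37-fold (log2 fold change 2.13, SE 0.45) and the 12-month controls at least 4.31-fold (2.11, SE 0.45). Control livers of 12 and 4 months, both averaging under the floor, gave no fold. Among dosed livers Tsku was lower at 24 months than at 4 months by 1.61 on the log2 scale (log2 fold change -1.61, SE 0.45, 3.04-fold lower), again without overlap, whereas dosed livers of 12 and 4 months overlapped (0.58, SE 0.45).

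In order of level, from high to low, the Brown Norway groups ran from dosed at 12 months, dosed at 4 months, control at 24 months and dosed at 24 months to the controls of 12 and 4 months, which averaged under the floor and have no order between them. Neighbours in that order that did not overlap were dosed at 4 months over control at 24 months, and dosed at 24 months over the younger controls. Dosed livers of 12 and 4 months overlapped, as did dosed and control livers of 24 months. In whole liver, more cells that make Tsku and more Tsku RNA per cell cannot be told apart.

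In F344 livers Tsku was above the floor on all 16 arrays, and no age group stood apart. The signals were 279, 146, 163 and 239 at 6 months. They were 264, 664, 433 and 309 at 11 months, and 688, 109, 367 and 249 at 18 months. At 24 months they were 285, 245, 1015 and 130.1, so the highest signal of the strain lay in the same age group as the second lowest.

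The F344 means were 207 ± 62.6 at 6 months, 417 ± 179 at 11 months, 353 ± 247 at 18 months and 419 ± 403 at 24 months (SD, n = 4 each). Every pair of F344 age groups compared here overlapped. The largest of the F344 age differences was that of 11 over 6 months, a log2 fold change of 0.97 (SE 0.56), which in size ranked at 21 of 9215 genes. The other differences were 0.53 for 18 over 6 months, 0.63 for 24 over 6 months and 0.11 for 24 over 18 months, each with a standard error of 0.56. Each of these 3 rested on single livers: that of 18 over 6 months was 0.11 without the 18-month liver at 688, and those of 24 over 6 and 24 over 18 months were 0.06 and -0.46 without the 24-month liver at 1015.

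What set Tsku apart in F344 rats was the spread among livers of the same age. The highest liver exceeded the lowest 1.90-fold at 6 months, 2.52-fold at 11 months, 6.30-fold at 18 months and 7.80-fold at 24 months. The SD within groups was 0.91 on the log2 scale, above that of 99.7% of F344 genes, whose median was 0.23. In Brown Norway livers it was 0.61, above that of 97.3% of genes, with arrays at the floor counted as equal. The 3' to 5' signal ratio of Gapdh, a measure of RNA integrity, ran from 1.31 to 7.33 on the F344 arrays. Tsku was 163 to 664 with a median of 264 on the 5 F344 arrays with a ratio above 2.5, and 109 to 1015 with a median of 285 on the other 11, so the ranges overlapped.

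**Figure D2:**
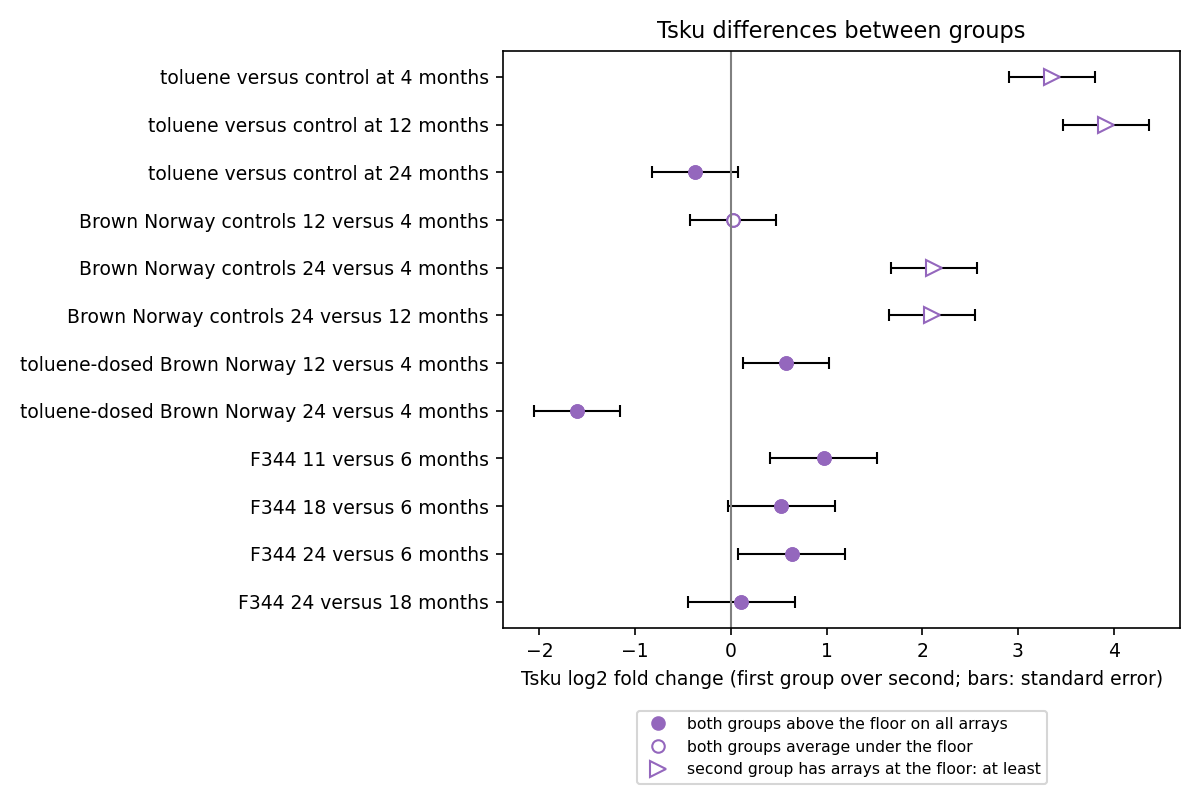
Tsku log2 fold change for each pair of groups (first group over second), with standard errors. Open triangles mark differences against a group with arrays at the floor, which are lower bounds, and the open circle a pair in which both groups average under the floor. The toluene differences at 4 and 12 months stand at 3.36 and 3.92 and that at 24 months at -0.37, and the F344 differences lie between 0.11 and 0.97.

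Brown Norway arrays had median signals between 35.6 and 38.3, with 52.8% to 54.8% of probe sets above the floor, and F344 arrays median signals between 44.9 and 47.1, with 59.5% to 61.1%. Of the 8 hepatocyte markers measured in Brown Norway livers, all were above the floor on every array, and their summed signal ran from 45597 to 52435 over the 6 groups. Nothing in the labels says that replicate livers were handled apart, so standard errors and p-values measure the spread between these rats and arrays.

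Few genes passed a test for toluene at the ages where Tsku differed. Tsku itself is left out of every count of calls. At 4 months 1 of 8586 genes passed a limma test at an adjusted p under 0.05 (0.0116%), and this was Alas1. Alas1 had signals of 2542, 2405 and 2528 in dosed livers, against 704, 616 and 724 in control livers. It rose by a log2 fold change of 1.87 (SE 0.25, limma adjusted p = 0.00763), and its adjusted p reached 0.0914 under the alternatives tried, 5 of 14 of which lost the call, among them leaving out control replicate 2 or 3 or dosed replicate 1 or 3.

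At 12 months 2 genes passed (0.0233%): Alas1 and Nr0b2, which encodes the bile acid-responsive repressor SHP. Alas1 had signals of 2726, 2881 and 2648 in dosed livers, against 909, 638 and 716 in control livers (log2 fold change 1.88, SE 0.25, limma adjusted p = 0.00542). Nr0b2 had 287, 335 and 553 in dosed livers, against 45.3, 62.6 and 43.3 in control livers (2.92, SE 0.46, limma adjusted p = 0.0366). The Alas1 call was lost under 2 of 14 alternatives, among them leaving out control replicate 2 (adjusted p of up to 0.153), and that of Nr0b2 under 10 of 14, including each time 1 liver of these groups was left out (up to 0.310).

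Alas1 and Tsku parted at 24 months. Alas1 had 728, 935 and 1122 in dosed livers, against 300.4, 572 and 727 in control livers, with every dosed liver at or above the highest control liver (log2 fold change 0.87, SE 0.25, limma adjusted p = 0.284, not passing), while Tsku overlapped. At that age 5 genes passed (0.0582%; 0.0466% higher and 0.0116% lower), among them Scd, the desaturase that makes monounsaturated fatty acids, with 425, 286 and 905 in dosed livers, against 26.6, 30.2 and 20.2 in control livers, at or under the floor on all 3.

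Of 26 tested genes of foreign-compound metabolism, Alas1 was the 1 that passed at 4 and at 12 months, all in the upward direction, and 0 passed at 24 months; in the upward direction 0.0116%, 0.0233% and 0.0466% of all genes passed at 4, 12 and 24 months. Ahr, the receptor whose core motif was searched above, had 102, 144 and 121 in dosed livers of 4 months, against 97.0, 54.6 and 50.3 in control livers. At 12 months Ahr had 181, 179.7 and 158 in dosed livers, against 76.8, 83.0 and 83.7 in control livers (log2 fold change 1.09, SE 0.21, limma adjusted p = 0.250). Por, the reductase that feeds electrons to cytochrome P450 enzymes, differed by 1.04 at 4 months and 0.77 at 12 months (SE 0.40 each), and neither passed. In F344 livers Ahr was under the floor on all 16 arrays, with 29.9 as its highest signal, while Tsku was above the floor on all of them. The part of Ahr in the Tsku values was not tested.

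The genes of the pathways that Tsukushi is known to act on were not called with toluene. Few genes of any kind were, with 0.0116%, 0.0233% and 0.0582% of all genes passing at 4, 12 and 24 months. Counts of 0 in lists of these sizes are near those shares and do not set these pathways apart. At 4 months 0 of 6 small leucine-rich proteoglycan genes, 0 of 29 bone morphogenetic protein and transforming growth factor beta genes, 0 of 20 Wnt genes and 0 of 13 Notch genes passed, with median log2 fold changes of 0.45, 0.05, 0.03 and -0.09, against 0 over all genes. At 12 months the counts were 0 of each again, with medians of 0.26, -0.01, -0.07 and -0.13, and at 24 months as well, with medians of 0.12, 0.00, 0.06 and -0.04. The unadjusted p was under 0.05 for 267, 394 and 957 of the 8586 genes at 4, 12 and 24 months. In these lists it was so for 1 of the 20 Wnt and 2 of the 13 Notch genes at 4 months. At 12 months it was so for 3 bone morphogenetic protein and transforming growth factor beta genes and 2 Notch genes, and at 24 months for 1 Notch gene. Nearest to a call was Tbx3, a transcription factor of the Wnt list, at 4 months (log2 fold change 0.82, SE 0.14, limma adjusted p = 0.0936).

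Hes1, the repressor that Notch signalling induces, had its higher mean in dosed livers at 4 and 12 months and in control livers at 24 months, as Tsku had, without passing. Hes1 also ranked first by correlation with Tsku over these arrays, given further on, so the shared pattern is not separate evidence. Of the 13 Notch genes tested, 2, 3 and 5 had a positive log2 fold change at 4, 12 and 24 months. The mean signals of Hes1 were 199 ± 32.2 in dosed and 147 ± 13.7 in control livers at 4 months, and 218 ± 33.0 in dosed and 132 ± 16.9 in control livers at 12 months. At 24 months they were 166 ± 15.2 in dosed and 226 ± 21.5 in control livers (SD, n = 3 each). The log2 fold changes with toluene were 0.43, 0.72 and -0.44 (SE 0.15 each; limma adjusted p = 1, 0.328 and 0.325).

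Id1, a direct target of bone morphogenetic protein signalling, had 80.0, 107 and 543 in dosed livers of 12 months, against 71.5, 37.1 and 75.0 in control livers. At 24 months Id1 had 95.4, 91.4 and 83.0 in dosed livers, against 264, 208 and 111 in control livers. The liver with 543 was the one with Tsku at 1076. None of the Id1 toluene differences passed (limma adjusted p = 1, 0.923 and 0.495 at 4, 12 and 24 months).

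Of the lists of processes with which liver Tsku has been reported to move, 0 of 31 cholesterol, lipoprotein and bile acid genes, 0 of 30 genes of other secreted liver proteins, 0 of 15 thyroid hormone genes, 0 of 16 lipogenic genes and 0 of 25 endoplasmic reticulum stress genes passed at 4 months. At 12 months Nr0b2 was the 1 that passed, in the first of these lists, and at 24 months Scd was the 1 that passed, in the lipogenic list. Over the 13 male-biased and 9 female-biased liver genes tested, 0 passed at any of the 3 ages. Of all genes 0.0116%, 0.0233% and 0.0582% passed at 4, 12 and 24 months, so counts of 0 in lists of this size are near the background. The counts of 1 lie above it, and each rests on a single gene.

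**Figure D3:**
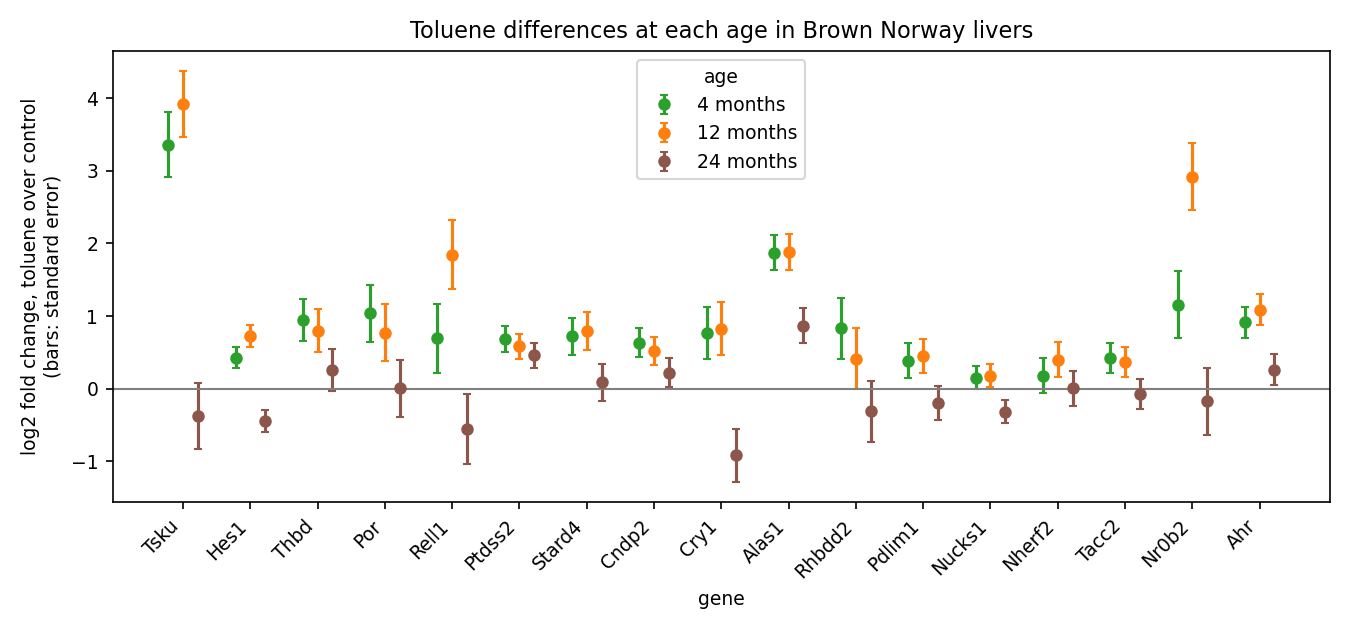
Log2 fold change of toluene-dosed over control Brown Norway livers at 4, 12 and 24 months, with standard errors, for Tsku, the genes most like it in that strain or in both, Nr0b2 and Ahr. Tsku stands at 3.36 and 3.92 at the first 2 ages (lower bounds) and at -0.37 at 24 months, and Alas1 stays above 0 at every age, at 1.87, 1.88 and 0.87.

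The liver with the highest Tsku signal of the Brown Norway rats, 1076 in the 12-month dosed group, also stood apart in genes of the circadian clock. Cry1, a clock repressor, had 148 in that liver, against 41.5 and 40.5 in the other 2 dosed livers. Nr1d1, another clock repressor, had 21.1 there, against 127.7 and 82.8, and Usp2, a rhythmic deubiquitinase, had 217, against 40.0 and 44.4.

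At 24 months Cry1 had 25.0, 37.4 and 36.5 in dosed livers, against 78.6, 69.3 and 53.7 in control livers. Nr1d1 had 142, 77.2 and 91.0 in dosed livers of that age, against 31.3, 25.1 and 34.3 in control livers. Neither gene overlapped between these groups, and in both the controls lay on the side of the 12-month liver with Tsku at 1076. Both genes were chosen after values were seen, and the share of all genes without overlap was not counted. They do not stand for the list, in which 8 of 15 clock genes had a positive log2 fold change with toluene at 24 months. Usp2 overlapped at 24 months, with 31.7, 15.8 and 41.2 in dosed livers, against 106, 92.9 and 36.5 in control livers. A control liver of 4 months with Nr1d1 at 19.6, lower than in that 12-month liver, had Tsku at 27.4, under the floor. Of 15 clock genes tested, 0 passed with toluene at 4, 12 or 24 months, with medians of 0.21, 0.34 and 0.01, against 0.0116%, 0.0233% and 0.0582% of all genes. At an unadjusted p under 0.05 were 1, 4 and 4 of the 15, against 267, 394 and 957 of all 8586 genes, and the part of the clock genes in the Tsku values was not tested.

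Macrophage markers were higher in Brown Norway controls of 24 than of 4 months, as Tsku was. Their summed signal over 9 genes was 3737 to 7830 in control livers of 24 months and 1907 to 2395 in those of 4 months. It was 2296 to 3600 in dosed livers of 24 months. Control livers of 12 months had sums of 2724 to 3398, where Tsku averaged under the floor. Dosed livers of 4 and 12 months had sums of 1978 to 3049 and 2105 to 3012, where Tsku was 263 to 1076. C1qb and Cd163, 2 of the 9, passed in the comparison of 24 with 4 months (log2 fold changes 1.60 and 1.32, limma adjusted p = 0.0236 and 0.0354), in which 0.245% of all genes passed (0.175% higher, 0.0699% lower). Both calls were lost without any 1 of the 4-month controls or without 24-month control replicate 1, with adjusted p of up to 0.463 and 0.501 over the alternatives. Their part in the Tsku difference was not tested.

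Markers of stellate cells and fibroblasts differed between single dosed livers. Their summed signal over 10 genes was 1189 to 5267 in dosed and 1228 to 1567 in control livers at 4 months, and 971 to 3078 in dosed and 1221 to 1326 in control livers at 12 months. Dcn had 1246, 61.0 and 65.2 in the dosed livers of 4 months, in which Tsku had 348, 263 and 387. The part of these cells in the Tsku values was not tested. With toluene 0 of 8 of these markers, 0 of 9 macrophage, 0 of 6 endothelial and 0 of 8 hepatocyte markers passed at any age, where at most 0.0582% of all genes did. At 24 months, however, all 9 macrophage markers were lower in dosed livers (median log2 fold change -0.96), each at an unadjusted p under 0.05, as were 957 of all 8586 genes in either direction. The few cholangiocyte, lymphocyte and other-organ markers tested did not pass either. Of the 6 other-organ markers measured, 2 were tested. The summed signal of the 6 was 893 to 3765 in dosed and 785 to 1041 in control livers at 4 months. It was 577 to 1294 and 731 to 873 at 12 months, and 514 to 690 and 505 to 647 at 24 months. The part of other tissue in the Tsku values was not tested.

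In that comparison of Brown Norway controls of 24 with 4 months, where Tsku differed at least 4.37-fold, the pathway lists had 0 calls among 6 proteoglycan, 29 bone morphogenetic protein, 20 Wnt, 13 Notch, 31 cholesterol, 15 thyroid hormone and 25 stress genes. Among 9 female-biased genes Cyp3a9, a cytochrome P450, fell (log2 fold change -1.68, limma adjusted p = 0.0236), and it lost its call without any 1 of the 4-month controls or without 24-month control replicate 1 (adjusted p of up to 0.468). By smallest p in each of these pathway lists, Id1 had 1.92 (SE 0.53, limma adjusted p = 0.131) and Hes1 0.62 (SE 0.15, limma adjusted p = 0.0917). Dcn had 1.96, Apoa4 1.19 and Thrsp 0.78, whereas Axin2 had -0.86 and Syvn1 -0.63, and none of them passed. Positive were 4 of 6 proteoglycan, 15 of 29 bone morphogenetic protein, 5 of 20 Wnt and 6 of 13 Notch genes. So were 16 of 31 cholesterol, 7 of 15 thyroid hormone and 7 of 25 stress genes. Hes1 was also picked by its correlation with Tsku over these arrays, so its rise is not separate evidence.

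In F344 livers of 24 against 6 months, where Tsku overlapped, the genes of its pathways were called in both directions, with 7.4% of all 9214 genes passing. Of 4 proteoglycan genes tested, Dcn, the matrix proteoglycan decorin, rose (log2 fold change 1.73, SE 0.42, limma adjusted p = 0.0180) and Omd, osteomodulin, fell (-1.66, SE 0.23, limma adjusted p = 2.86e-04). Dcn is also a marker of stellate cells and fibroblasts, of which 1 of 8 rose, and its call was lost without 1 liver, 24-month replicate 1 or 6-month replicate 3, with an adjusted p of up to 0.111 over the alternatives.

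Of 21 Wnt genes, 2 rose and 1 fell. Fzd4, a Wnt receptor that Tsukushi binds in mice, averaged 231 ± 23.6 at 24 months and 140.1 ± 25.8 at 6 months (SD, n = 4 each; log2 fold change 0.73, SE 0.16, limma adjusted p = 0.00977), and it stayed called under all 17 alternatives. Sfrp1, a secreted Wnt inhibitor, rose by 0.64 and Tbx3 fell by 1.04 on the log2 scale (limma adjusted p = 0.0282 and 0.0352), and each call was lost under at least 8 of 16 alternatives. Among 30 bone morphogenetic protein genes Ltbp4, which anchors latent transforming growth factor beta, rose (0.63, limma adjusted p = 0.0304), and among 11 Notch genes the Notch inhibitor Numb fell (-0.65, limma adjusted p = 0.0164). Both calls were lost when single livers were left out, 6 different ones for Ltbp4 and 3 for Numb.

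Of 16 thyroid hormone genes 4 fell: Dio1, which activates thyroid hormone, its target Klf9, Pck1 of gluconeogenesis and Cpt1a of fatty acid oxidation. Dio1 averaged 63.8 ± 23.6 at 24 months and 149 ± 16.6 at 6 months (SD, n = 4 each; log2 fold change -1.27, SE 0.21, limma adjusted p = 0.00169). In the 24-month liver with Tsku at 1015 Dio1 had 99.3, against 50.1 to 53.1 in the other 3. Of 17 alternatives the Dio1 call was lost under 1, a floor 4 times as high, that of Klf9 under 0, that of Pck1 under 3, among them leaving out 6-month replicate 3, and that of Cpt1a under 10, among them leaving out any of 6 single livers. Of 28 cholesterol and bile acid genes Sqle, an enzyme of cholesterol synthesis, rose (1.31, SE 0.23, limma adjusted p = 0.00220). Of 29 genes of other secreted liver proteins Gpnmb rose (1.62, SE 0.19, limma adjusted p = 7.54e-05) and Lect2 fell (-1.44, SE 0.34, limma adjusted p = 0.0172; lost under 5 of 17 alternatives, 4 of them a single liver left out), and of 24 foreign-compound genes 4 rose and 3 fell. Alas1 was not among them (0.41, SE 0.19, limma adjusted p = 0.247). Of 17 lipogenic genes Elovl6 and Pnpla3 rose and of 25 stress genes Xbp1 fell. Of 17 alternatives the call of Elovl6 was lost under 0, that of Pnpla3 under 11, including 7 single livers left out, and that of Xbp1 under 12.

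The sex-biased lists, by contrast with the overlap in Tsku, held many calls. Of 13 male-biased genes 12 fell at 24 against 6 months and 0 rose, and of 13 female-biased genes 9 rose and 2 fell; 2.96% of all genes were lower and 4.44% higher. Cyp2c11, the male-biased steroid hydroxylase, averaged 316 ± 191 at 24 months and 5855 ± 299 at 6 months (SD, n = 4 each), while Tsku covered 130.1 to 1015 at 24 months and 146 to 279 at 6 months. Of 9 macrophage markers 4 rose, and the summed signal of the 9 was 3945 to 5301 at 24 months and 2410 to 3355 at 6 months. The calls of Clec4f and Csf1r were each lost under 9 of 17 alternatives, among them single livers left out. Those of Fcer1g and Cd68 were lost under 0.

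At 18 against 6 months, where 1.07% of genes passed, 0 genes of the proteoglycan, bone morphogenetic protein, Wnt and Notch lists passed. At 24 against 18 months (1.79% of genes, 0.912% higher and 0.879% lower) Fzd4 rose again (0.78, SE 0.16, limma adjusted p = 0.0186) and Omd fell (-1.64, SE 0.23, limma adjusted p = 6.74e-04); both comparisons share the 24-month livers, and this Fzd4 call was lost under 4 of 17 alternatives, among them leaving out 24-month replicate 2 or 4 (adjusted p of up to 0.0821). Clock genes moved there too, with 2 of 16 higher and 4 lower, and Nr1d1 lower at 24 months by 2.42 on the log2 scale (log2 fold change -2.42, limma adjusted p = 7.79e-05). The 2 higher calls, Cry1 and Npas2, were lost under 9 of 16 and 9 of 17 alternatives, many of them a single liver left out. Their adjusted p reached 0.167 and 0.533. The 4 lower calls, Nr1d1, Nr1d2, Tef and Dbp, were lost under 0.

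Genes were ranked by the Pearson correlation of their log2 signals with those of Tsku over the arrays of a strain. The correlations describe arrays that share groups, and have no p. In Brown Norway livers, over 18 arrays in 6 groups, the 8 highest were Hes1 (0.78), Thbd (0.78), Por (0.77), Rell1 (0.76), Ptdss2 (0.75), Stard4 (0.74), Cndp2 (0.74) and Cry1 (0.71). Thbd encodes thrombomodulin, Ptdss2 makes phosphatidylserine, and Stard4 carries cholesterol between membranes. Within groups, after subtracting group means, the values of Por and Cry1 were 0.74 each and that of Stard4 was 0.28, and by the within-group correlation 0 of these 8 genes stayed among the first 8 and 2 among the first 100. The lowest were Xiap (-0.76), an inhibitor of caspases, Inhbe (-0.75), a secreted activin subunit of liver, Them7 (-0.75) and LOC100909782 (-0.73).

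In F344 livers, over 16 arrays, the 8 highest were Arpc4 (0.86), Tle5 (0.82), Bud23 (0.80), Flywch1 (0.80), Mvb12a (0.79), Oplah (0.79), Igfals (0.79) and Sirt2 (0.78). Arpc4 encodes a subunit of the actin-nucleating Arp2/3 complex, and Igfals the carrier subunit of circulating insulin-like growth factor. The lowest were Mthfs (-0.85), Sec16b (-0.84), Epha3 (-0.81) and Kiaa1958 (-0.77). Within age groups Arpc4 had 0.89, so its likeness was one between livers of the same age.

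Arpc4 had 229 in the 24-month liver with Tsku at 1015 and 129 in that with Tsku at 130.1. It had 117 in the 18-month liver with Tsku at 109 and 210.1 in that with Tsku at 688. At its lowest and highest, Arpc4 thus differed less than Tsku in the same livers.

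These 2 lists of 8 shared no gene. Hes1, first in Brown Norway, had -0.55 in F344 livers, and Arpc4, first in F344, had 0.13 in Brown Norway livers. The 6 genes with the highest smaller value of both strains were Alas1 (0.67 in Brown Norway and 0.68 in F344), Rhbdd2 (0.65 and 0.59), Pdlim1 (0.62 and 0.58), Nucks1 (0.53 and 0.54, on a different probe set in each strain), Nherf2 (0.52 and 0.68) and Tacc2 (0.55 and 0.49). Alas1 was thus the gene most like Tsku over both strains, but within the Brown Norway groups its correlation was -0.41 and within the F344 groups 0.66.

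**Figure D4:**
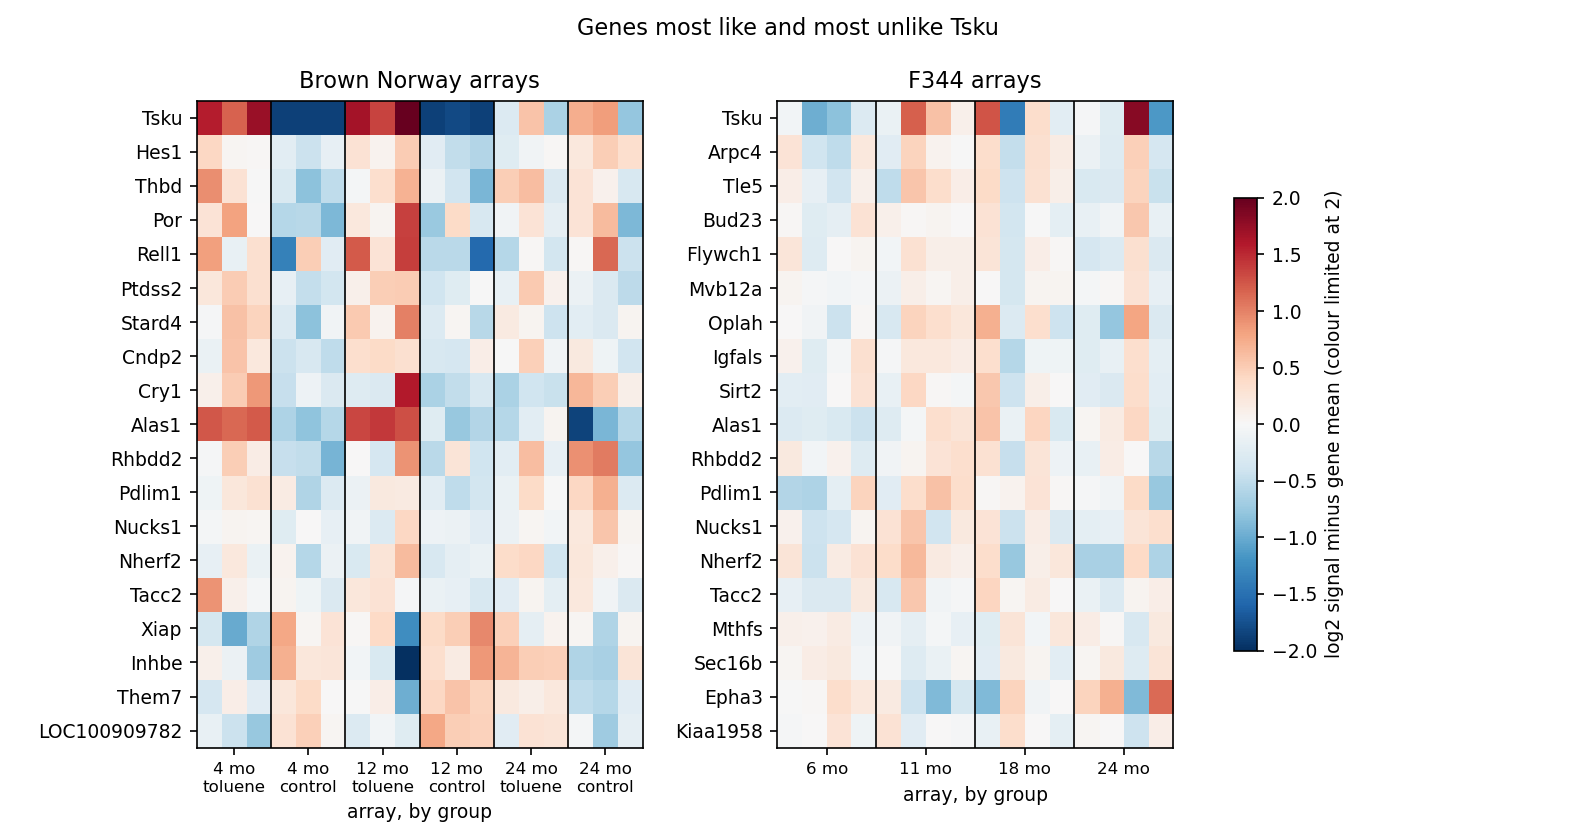
Log2 signal minus the gene's mean over the arrays of a strain (colour, limited at 2 either way) for Tsku and the genes most like and most unlike it, with 1 column per array. In Brown Norway livers Tsku and Alas1 are high in dosed livers of 4 and 12 months, and in F344 livers the column of the 24-month liver with Tsku at 1015 is high in Arpc4, Tle5 and Bud23.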

How the data were processed

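Liver RNA of 34 male rats was measured on Affymetrix rat arrays. The deposited values are linear intensity values per probe set; no label or header states their scaling, and the values show similar distributions over the arrays of a strain, which differ between the strains. The submitters' processing notes name MAS5 and RMA, with no version, role or order. Probe sets were named from the array annotation (17589 of 24946 with 1 gene symbol, 393 with several and left unnamed), and 53 array controls were left out; values were present for 23324 probe sets in each strain. Each gene was represented in a strain by its probe set of highest mean log2 signal; Tsku has only 1. Intensities under 32 were set to 32 and log2 was taken of the deposited intensities, and genes were kept with signals over 32 on 3 or more arrays (Brown Norway) or 4 or more (F344). Within each strain a limma 3.58.1 fit (R 4.3.3) with 1 mean per group gave log2 fold changes, standard errors and, for genes other than Tsku, p-values adjusted by Benjamini-Hochberg over all genes tested, called under 0.05; Tsku was left out of counts of calls. The number of arrays limits the precision. The script was tested on simulated data. Alternatives were other floors, no filter, other scalings, array weights, a variance trend, the compared groups alone, F344 arrays with a low Gapdh ratio only, and each array left out. Named genes were Tsku, the 8 highest, 4 lowest and 6 jointly highest correlations, and per list the up to 4 called members of smallest p, or the 1 of smallest p where none was called, plus fixed genes. Promoter windows are from RefSeq, build GRCr8. Tsku and the lists were chosen with earlier results of these data known; the clock and foreign-compound lists, and the genes shown beside them for single livers (Cry1, Nr1d1, Usp2, Id1, Ahr, Por), were chosen after values were seen.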

Additional observations from a re-analysis of the deposited data

Results flagged for a closer look

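Single F344 livers lay far from the other 3 of their age in 16 of 200 sets of 4 signals, where chance alone gives about 1 in 20. The 24-month liver with Tsku at 1015 was the one that stood apart for 8 genes. It was high for Tle5 at 313.9, Bud23 at 210.5, Flywch1 at 223.4, Igfals at 886.9, Sirt2 at 246.3, Nherf2 at 154.2 and Dio1 at 99.25, and low for Igf1 at 4192. All but Dio1 and Igf1 had been picked for following Tsku, so these 6 are not separate evidence. Among 18-month livers, 1 was high for Cndp2 at 467.3 and low for Dcn at 84.71. Another was high for Pdlim1 at 458.8 and for Cyp2c12 at 1013. The liver with Tsku at 109 was low for Mvb12a at 203.4, and that with Tsku at 688 was low for Abca1 at 324.7. Among 11-month livers, that with Tsku at 264 was high for Inhbe at 712 and that with Tsku at 664 was low for Bmp7 at 32.82, close to the floor. Mvb12a and Pdlim1 had also been picked for following Tsku over arrays that include these, so they are not separate evidence either. Cndp2 and Inhbe had been picked by their correlation with Tsku in Brown Norway livers.

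The toluene difference of Scd in Brown Norway livers differed between ages: it was 3.964 higher on the log2 scale at 24 than at 4 months and 3.557 higher at 24 than at 12 months, in a limma test of the difference itself (adjusted p = 0.00442 and 0.0169). Scd was under the floor in all control livers of 24 months and in most younger livers of both groups, so these sizes depend on the floor and are not exact. Tsku went the other way, with a toluene difference lower at 24 months.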

How the results depend on the processing

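Of 144 alternative values of the Tsku differences, 140 moved by less than the spread between livers, and the other 4 all came from a floor 4 times as high, which lies above every control liver of 4 and 12 months and so shrinks the bound by construction. With it the toluene difference was 1.36 at 4 months and 1.94 at 12 months, and the difference of 24-month controls was 0.43 over 4-month controls and 0.43 over 12-month controls. With each array left out in turn, the Tsku log2 fold change ran from 3.24 to 3.52 for toluene at 4 months, 3.35 to 4.28 at 12 months and -0.89 to -0.08 at 24 months. It ran from 1.84 to 2.65 for controls of 24 over 4 months, 1.82 to 2.63 for 24 over 12 months and 0 to 0.03 for 12 over 4 months, and for dosed livers from -1.94 to -1.35 for 24 over 4 months and 0.01 to 0.94 for 12 over 4 months. In F344 livers it ran from 0.71 to 1.16 for 11 over 6 months, 0.11 to 0.99 for 18 over 6 months, 0.06 to 1.05 for 24 over 6 months and -0.46 to 0.53 for 24 over 18 months, which crosses 0.

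Counts of genes called depended more on the settings, and the cause was not tested. For toluene they were 1 at 4 months (2 with the higher floor, 0 with no filter, 5 with array weights, 0 to 3 with an array left out), 2 at 12 months (1 with a floor 4 times lower, 1 with no filter, 0 with the compared groups alone, 0 to 2 with an array left out) and 5 at 24 months (1 with the lower floor, 2 with the higher floor, 8 with weights, 0 with the groups alone, 1 to 48 with an array left out). For Brown Norway controls of 24 over 4 months there were 21 (6 with the higher floor, 9 with no filter, 39 with a variance trend, 0 with the groups alone, 0 to 134 with an array left out). For F344 24 over 6 months there were 682 (1153 with weights, 426 without the arrays of high Gapdh ratio, 388 to 641 with an array left out). For 24 over 18 months there were 165 (85 with the lower floor, 109 with the higher floor, 629 with weights, 105 without those arrays, 64 with the groups alone, 68 to 249 with an array left out). For 18 over 6 months there were 99 (55 with the higher floor, 60 with no filter, 430 with weights, 55 without those arrays, 54 with the groups alone, 24 to 206 with an array left out). The toluene counts were tried under alternatives chosen after seeing the data. By rank correlation 5 of the 8 genes most like Tsku in Brown Norway and 3 of 8 in F344 stayed among the first 8, and by the correlation within groups 0 and 4 of them. No paired analysis was possible because the labels give no replicate numbers that groups share. Other Tsku probe sets were planned as alternatives and not run, since there is only 1.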
